A study of Mus musculus with 6 samples.

Results

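The megakaryocyte and platelet genes Pf4, Ppbp, Gp9, Gp1ba, Gp1bb, Gp5, Itga2b, Vwf and Treml1 were examined in erythroblasts sorted from mice recovering from hemolytic anemia. Every non-control probe carrying one of these gene names was taken, which gave 11 probes of 9 genes among 55681 probes of 34761 genes. Gp1bb had 3 probes and each of the other genes had 1.

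All mice carried Mx1-Cre, which is switched on by PolyIC in hematopoietic cells in general, so that megakaryocytes as well as erythroblasts may lose floxed alleles. P38α-/- mice (arrays labelled P38ko) were Mx1-Cre/P38α fl/fl, and their P38α+/- littermates (arrays labelled P38hetero) were Mx1-Cre/P38α fl/+ and had 1 floxed allele of the kinase gene. Male and female mice were given PolyIC 3 times (300 µg each) at 6 to 8 weeks of age, rested for 6 weeks, and received phenylhydrazine (PHZ, 100 mg/kg), a compound that lyses red blood cells. BM erythroblasts, gated as CD71highTer119+, were sorted on day 4. RNA of each mouse was amplified from 10 ng and hybridized to 1 Agilent array, with 3 arrays per genotype. The labels do not say whether a P38ko and a P38hetero array came from one litter.

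Megakaryocytes and erythroid cells descend from common progenitors and use several of the same transcription factors, among them GATA1, TAL1 and NFE2. Platelets bud from megakaryocytes and carry receptors for vessel wall proteins, such as the GPIb-IX-V complex, which binds von Willebrand factor, and the integrin αIIbβ3, which binds fibrinogen. Their α-granules store chemokines such as platelet factor 4. Itga2b, which encodes the αIIb chain (CD41), is also well known to be expressed by early hematopoietic and erythroid progenitors, and it was therefore set against the other 8. Expression of the other 8 in such progenitors was not examined.

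The proximal promoters of Pf4, Gp9 and Itga2b are shown because these genes were measured on every array and represent a granule chemokine, a subunit of the von Willebrand factor receptor and a gene shared with early progenitors. Each window runs from 250 bases before to 50 bases after the annotated start, is taken from RefSeq (GRCm38.p6) and is printed 5′ to 3′ on the strand of the gene. Capitals mark 6-letter matches, on either strand, to AGATAA or TGATAA, which are letters bound by GATA factors, and to CGGAAG or AGGAAG, which contain the core bound by ETS factors such as FLI1. A match on the other strand appears as its reverse complement. The windows are chr5:90772185-90772484 on the plus strand for Pf4, chr6:87777820-87778119 on the plus strand for Gp9 and chr11:102469834-102470133 on the minus strand for Itga2b.
Pf4: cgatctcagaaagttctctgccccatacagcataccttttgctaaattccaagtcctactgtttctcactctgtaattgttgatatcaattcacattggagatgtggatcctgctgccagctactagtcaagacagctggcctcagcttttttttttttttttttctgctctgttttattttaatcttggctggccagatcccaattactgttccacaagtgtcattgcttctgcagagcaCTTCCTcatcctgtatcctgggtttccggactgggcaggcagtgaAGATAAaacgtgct
Gp9: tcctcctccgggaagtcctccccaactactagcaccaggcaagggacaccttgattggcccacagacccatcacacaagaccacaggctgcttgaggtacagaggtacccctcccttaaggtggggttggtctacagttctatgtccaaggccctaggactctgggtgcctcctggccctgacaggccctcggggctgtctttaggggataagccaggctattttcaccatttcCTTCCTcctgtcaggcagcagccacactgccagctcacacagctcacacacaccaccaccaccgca
Itga2b: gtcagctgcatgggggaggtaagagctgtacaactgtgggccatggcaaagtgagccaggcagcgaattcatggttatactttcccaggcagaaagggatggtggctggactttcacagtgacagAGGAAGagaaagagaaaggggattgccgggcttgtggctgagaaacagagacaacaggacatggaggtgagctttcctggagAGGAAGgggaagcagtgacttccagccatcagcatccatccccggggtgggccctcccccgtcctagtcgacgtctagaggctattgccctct

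The Pf4 window held AGATAA at position 37 after the start, and AGGAAG on the other strand at position -9. In the Gp9 window the only match was AGGAAG on the other strand, at position -16. The Itga2b window held AGGAAG on its own strand at positions -125 and -43. None of these matches overlapped another. Among 32851 mouse promoters of the same length, 11.2% held AGATAA, 9.05% TGATAA, 16.9% CGGAAG and 35.4% AGGAAG on either strand, so that AGGAAG, the motif present in all 3 windows, was also the most frequent of the 4. No window was available for Vwf. Of the members with dimmer probes, Ppbp and Treml1 held no match to any of the 4. Gp1ba held TGATAA at positions -104 and -51 and AGGAAG at -16. Gp5 held AGATAA at positions -93 and -77 and AGGAAG at -48. Gp1bb held CGGAAG at position -90 and AGGAAG at 21. These are matches of letters, and occupancy was not measured.

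Values below are log2 signals relative to the 75th percentile of each array, so that a negative value lies below that percentile. The scanner software marks a spot as well above background or not, and this mark is used as detection. Between 28.9% and 53.1% of all probes were well above background on an array, with the highest share on P38hetero replicate 1 and the lowest on P38ko replicate 1. The probes of Mapk14, the gene that encodes P38α, were not lower in the P38ko arrays (log2 differences 0.54 with adjusted p = 0.186 and 0.01 with adjusted p = 0.991, limma). The probe with the larger difference was higher in P38ko without overlap, as were 6.93% of all tested probes. The paper reports excision of the gene and loss of P38α protein in sorted erythroblasts. Which exons the deletion removes is not given in the sources used here, so these probes do not check the labels, and genotypes are named as labelled. The sorted population expressed its defining erythroid genes, since all 10 late erythroid markers, among them Alas2 and Slc4a1, were detected well enough to be tested and had a median log2 difference of 0.00.

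None of the 9 genes passed the threshold of an adjusted p of at most 0.05 and at least a 2-fold difference between genotypes. Of 14158 genes tested by limma, 27 (0.191%) passed, 21 higher (0.148%) and 6 lower (0.0424%) in P38ko. Among the members, 5 could be tested (Pf4, Gp9, Gp1ba, Itga2b and Vwf), each being well above background in one genotype throughout. At an unadjusted p of at most 0.05, 1 member (Pf4) and 23.9% of all tested genes qualified, and the methods' t-test after Benjamini-Hochberg adjustment passed 0 members. The 5 tested genes differed in the direction of their means. Pf4 had a lower mean in P38ko, while Gp9, Vwf, Gp1ba and Itga2b had a higher one. Because the signal is that of a sorted population, fewer cells of a type and less RNA per cell cannot be told apart.

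**Figure D1:**
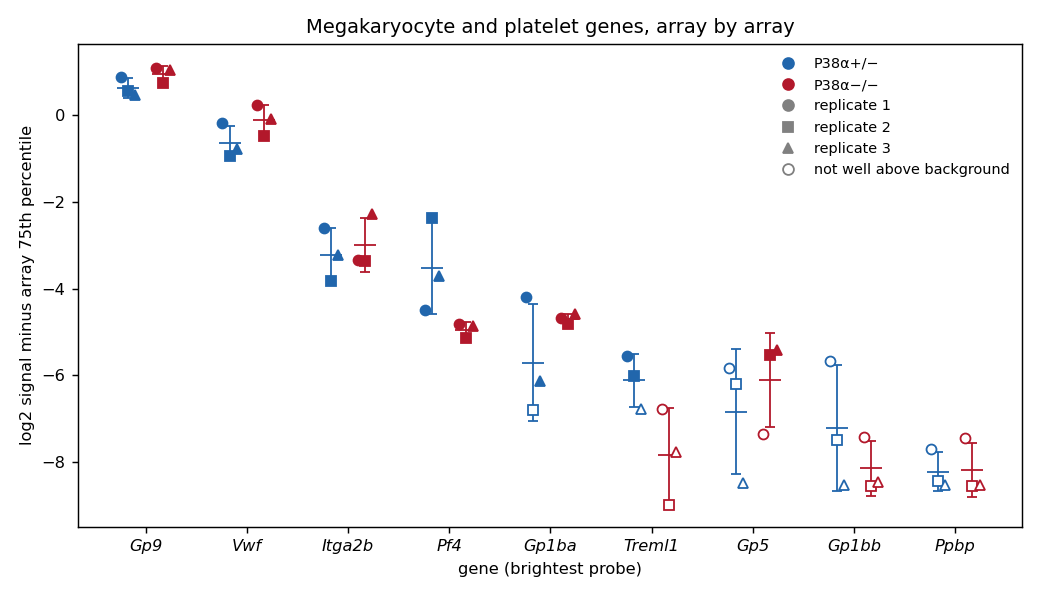
Log2 signal of the brightest probe of each of the 9 genes on 6 arrays, minus the array's 75th percentile over probes well above background on all arrays. Points are arrays (blue P38α+/-, red P38α-/-, shape by replicate), open points are not well above background, and bars are mean ± SD of 3 arrays. Heights of different genes come from different probes and are not comparable. Pf4 and Treml1 are the only genes with every P38α-/- point below every P38α+/- point, and all points of Ppbp and Gp1bb are open.

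Pf4 encodes platelet factor 4, a chemokine of α-granules (probe at chr5:91202275-91202334, mm9). The probe was well above background on each of the 6 arrays, but dim, with scanner signals between 26.3 and 252. Its log2 signals were -4.48, -2.37 and -3.71 in P38hetero replicates 1 to 3 and -4.82, -5.14 and -4.86 in P38ko replicates 1 to 3. Every P38ko array lay below every P38hetero array, and the P38hetero arrays were the more scattered, with replicate 2 far above the others. Genotypes without overlap were seen for 27.8% of all tested probes (20.8% with P38ko lower and 6.93% higher), and among the 5 tested members for Pf4 alone. The means were -3.52 ± 1.07 and -4.94 ± 0.18 (SD, n = 3 each), a log2 difference of -1.42 (SE 0.51), or 2.68-fold in favor of P38hetero. This did not pass (unadjusted p = 0.0299, adjusted p = 0.196, limma). The exact permutation test gave the smallest p that 3 against 3 allow (0.10, two-sided). Against the median tested probe, which itself was lower in P38ko by -0.16, the difference was -1.26.

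The size of the Pf4 difference rested in good part on P38hetero replicate 2. Between arrays of the same replicate number it was -0.34, -2.77 and -1.15. Without P38hetero replicate 2 it was -0.85 (adjusted p = 0.308). On slide 1 alone, which excludes P38ko replicate 3, it was -1.46. The separation of the genotypes was also a matter of scaling. The P38ko values overlapped those of P38hetero when arrays were scaled to the percentile over all probes, quantile normalized, centred on spike-in spots or taken from the normalized values deposited by the authors. Other members then stood apart on the high side. With the percentile over all probes, Gp9, Gp1ba and Vwf were higher in P38ko without overlap, as were 24.8% of all tested probes, and Gp1ba alone was so after quantile normalization (13.3% of probes) and in the values of the authors (14.4%). Under limma array weights Pf4 passed (log2 difference -1.95, adjusted p = 0.0309), in a setting where 1674 genes passed.

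Ppbp, which lies next to Pf4 and encodes the precursor of another platelet α-granule chemokine (chr5:91198970-91199029, mm9), stayed below that mark on all 6 arrays. Its values ran from -8.52 to -7.71 in P38hetero and from -8.55 to -7.45 in P38ko, and the groups overlapped.

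Gp9, Gp1ba, Gp1bb and Gp5 encode the subunits of the GPIb-IX-V receptor, and they ranged from readily measured to undetected. GPIX, the product of Gp9 (chr6:87729650-87729709, mm9), is needed for surface expression of the complex. Gp9 was well above background on each array, with log2 signals of 0.88, 0.55 and 0.46 in P38hetero and 1.08, 0.75 and 1.04 in P38ko (replicates 1 to 3). P38ko replicate 2 lay within the P38hetero range and the other P38ko arrays lay above it. The difference was 0.33 (SE 0.19), from means of 0.63 ± 0.22 and 0.96 ± 0.18 (SD, n = 3 each). It did not pass (adjusted p = 0.359, limma; exact permutation p = 0.20). Gp9 was higher in P38ko in 3 of 3 same-numbered arrays and in every alternative run that could change the difference, where it lay between 0.24 and 0.81.

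Gp1ba encodes the chain that contacts von Willebrand factor (chr11:70455461-70455520, mm9). It was well above background on 2 of 3 P38hetero arrays and on 3 of 3 P38ko arrays. Its log2 signals were -4.19, -6.80 and -6.13 in P38hetero and -4.68, -4.82 and -4.58 in P38ko. P38hetero replicate 1 was the highest of all 6 arrays and P38hetero replicates 2 and 3 were the lowest, so the genotypes overlapped. The difference was 1.01 (SE 0.63, adjusted p = 0.405, limma), and without P38hetero replicate 2 it was 0.47. Gp1ba was tested because of its P38ko arrays, so the size of this difference rests in part on a P38hetero value at background. Across the other scalings the difference ran from 0.39 after normexp to 1.57 after quantile normalization. Gp1ba passed under 1 alternative, the percentile over all probes (1.50, adjusted p = 0.027), in which 730 genes passed and the median probe was 0.32 higher in P38ko.

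Gp1bb encodes the β chain that is disulfide-linked to GPIbα. Its 3 probes (mm9, chr16:18621535-18621594, chr16:18621107-18621166 and chr16:18621717-18621776) were not well above background anywhere. The brightest read -5.66, -7.48 and -8.53 in P38hetero and -7.41, -8.54 and -8.46 in P38ko, and the mean differences of the 3 probes were -0.92, -0.09 and 0.05. Gp5 encodes the thrombin-cleaved subunit GPV (chr16:30308347-30308406, mm9). It was well above background on no P38hetero array and on 2 P38ko arrays, with values of -5.83, -6.20 and -8.49 in P38hetero and -7.35, -5.52 and -5.42 in P38ko. P38ko replicates 2 and 3 were the highest, while P38ko replicate 1 lay within the P38hetero range. The measured means were -6.84 and -6.10 (exact permutation p = 0.50), and without P38hetero replicate 3 the difference turned to -0.08, so no direction is given.

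Vwf encodes von Willebrand factor, the adhesive ligand of this receptor, which is made by megakaryocytes and by endothelial cells (chr6:125636551-125636610, mm9). The probe cleared background on each array and measured -0.19, -0.93 and -0.79 in P38hetero and 0.22, -0.48 and -0.09 in P38ko. P38ko replicates 1 and 3 lay above all P38hetero arrays and P38ko replicate 2 lay among them. The difference was 0.52 (SE 0.27), from means of -0.64 ± 0.39 and -0.12 ± 0.35 (SD, n = 3 each), and did not pass (adjusted p = 0.327, limma; exact permutation p = 0.20). Vwf was higher in P38ko in 3 of 3 same-numbered arrays and in every alternative that could change the difference, between 0.37 and 1.00. Of 8 endothelial markers, Cdh5, Emcn, Cldn5 and Tie1 were not well above background on any array. Kdr cleared background on all 6 arrays, and Pecam1 on 3 P38hetero arrays and 1 P38ko array. Plvap did so on 2 arrays of each genotype and Tek on 1 P38hetero array. The summed level of the list, in which Kdr was by far the brightest, overlapped between genotypes. It ran from -0.67 to -0.07 in P38hetero and from -0.97 to -0.25 in P38ko.

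Treml1 encodes TLT-1, a receptor that activated platelets bring to their surface from α-granules (chr17:48506365-48506424, mm9). It was well above background on 2 P38hetero arrays and on no P38ko array, so it was not tested by limma. Its values were -5.55, -6.02 and -6.77 in P38hetero and -6.78, -8.98 and -7.77 in P38ko. All P38ko arrays lay below all P38hetero arrays, P38ko replicate 1 by a narrow margin (exact permutation p = 0.10, the smallest possible). With the P38ko arrays at the detection floor, Treml1 was at least 1.29-fold lower in P38ko in the main setting (measured means -6.11 and -7.84). The P38hetero mean behind this minimum includes an array that was not well above background, and the minimum was derived for the main setting only. The log2 difference shrank from -1.73 to -0.73 after quantile normalization, -0.27 in the values of the authors and -0.22 after normexp background correction.

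Itga2b (chr11:102319453-102319661, mm9) cleared background on each array. Its log2 signals were -2.61, -3.83 and -3.21 in P38hetero and -3.34, -3.36 and -2.28 in P38ko. The highest value came from P38ko replicate 3 and the lowest from P38hetero replicate 2, and the remaining arrays of both genotypes were interleaved. The means were -3.22 ± 0.61 and -2.99 ± 0.62 (SD, n = 3 each), a difference of 0.22 (SE 0.42, adjusted p = 0.803, limma; exact permutation p = 0.70). Its direction was not fixed. The difference was -0.13 without P38ko replicate 3, the only array on slide 2, and -0.08 without P38hetero replicate 2.

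Whether Itga2b moved apart from the other 8 genes was measured within each array, where a constant scaling of the array cancels. Quantile normalization, normexp and the processing behind the values of the authors do not cancel. Itga2b minus Pf4 was 1.87, -1.45 and 0.49 in P38hetero and 1.48, 1.78 and 2.58 in P38ko. In the main setting this was the only such difference among genes measured on all 6 arrays in which the mean shifted by more than 1 log2 unit between genotypes (1.64), and P38ko replicates 1 and 2 still lay below P38hetero replicate 1 (exact permutation p = 0.30, adjusted over the 8 comparisons 0.60). The shift was 1.13 after quantile normalization, 1.07 in the values of the authors and 0.99 after normexp. Itga2b minus Gp9 was -3.49, -4.38 and -3.67 in P38hetero and -4.42, -4.11 and -3.32 in P38ko, a shift of -0.10 (exact permutation p = 0.90). Itga2b minus Vwf was -2.42, -2.90 and -2.43 in P38hetero and -3.57, -2.88 and -2.19 in P38ko, a shift of -0.30 (exact permutation p = 0.70). In those 3 settings, in the same order, the shift against Gp9 was 0.14, 0.17 and -0.15. Against Vwf it was -0.08, 0.00 and -0.30.

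Against Gp1ba, which was well above background on 5 arrays, the shift of Itga2b was -0.79 (exact permutation p = 0.20). Ppbp, Gp1bb, Gp5 and Treml1 were not well above background on any array of at least one genotype, so a difference from them has no measured size. Over the members well above background throughout (Pf4, Gp9 and Vwf) the median log2 difference was 0.33, and Itga2b minus that median was -0.10. Over all 8 platelet genes, with Ppbp, Gp1bb, Gp5 and Treml1 included, the median was 0.19 and Itga2b minus it was 0.04, so this value had no fixed sign. A separation of Itga2b from Pf4, Gp9, Gp1ba or Vwf was not detected with 3 arrays per genotype, and the means of these 4 did not share a direction.

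Other genes of the lineage were read from 5 lists, with 66 genes in all, 40 of them tested. No gene of these lists passed in the unpaired test (0 of 40). The smallest adjusted p was 0.0922, for Nbeal2, which is required for α-granule formation. Of the 3 lists of platelet receptors, granule proteins and formation genes, 21 of 44 genes were tested, 17 of them lower in mean in P38ko. In 12 (57.1%) every P38ko array lay below every P38hetero array and in 1 (Tbxas1) above, against 20.8% and 6.93% of all tested probes. Their median log2 difference was -0.88, compared with -0.16 over all tested probes. This separation depended on the scaling. The number without overlap on the low side was 5 of 21 after quantile normalization (8.84% of all probes), 5 of 21 in the normalized values of the authors (9.57%), 4 of 21 after normexp (8.84%), 2 of 21 with the percentile over all probes (4.95%) and 0 of 21 after spike-in centring (2.94%). On the high side it was 4 of 21 with the percentile over all probes (24.8% of all probes), which exceeds the low side, 2 of 21 each after quantile normalization, after normexp and in the values of the authors, and 0 of 21 after spike-in centring, while the median difference stayed negative, between -0.72 and -0.36.

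Same-numbered arrays deviated together, so the replicate number was also fitted as a block. In that paired fit 62 genes passed instead of 27, 15 of them higher in P38ko, and 3 of the 66 list genes passed, all lower in P38ko. They were Nbeal2 (-1.51, adjusted p = 0.0489), Kit (-1.62, adjusted p = 0.048) and Cd34 (-1.87, adjusted p = 0.048). Kit encodes the stem cell factor receptor and Cd34 a progenitor surface antigen. Cd34 was well above background on 3 P38hetero arrays and on only 1 P38ko array, so the size of its difference rests on P38ko values at background. No member passed with the block.

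**Figure D2:**
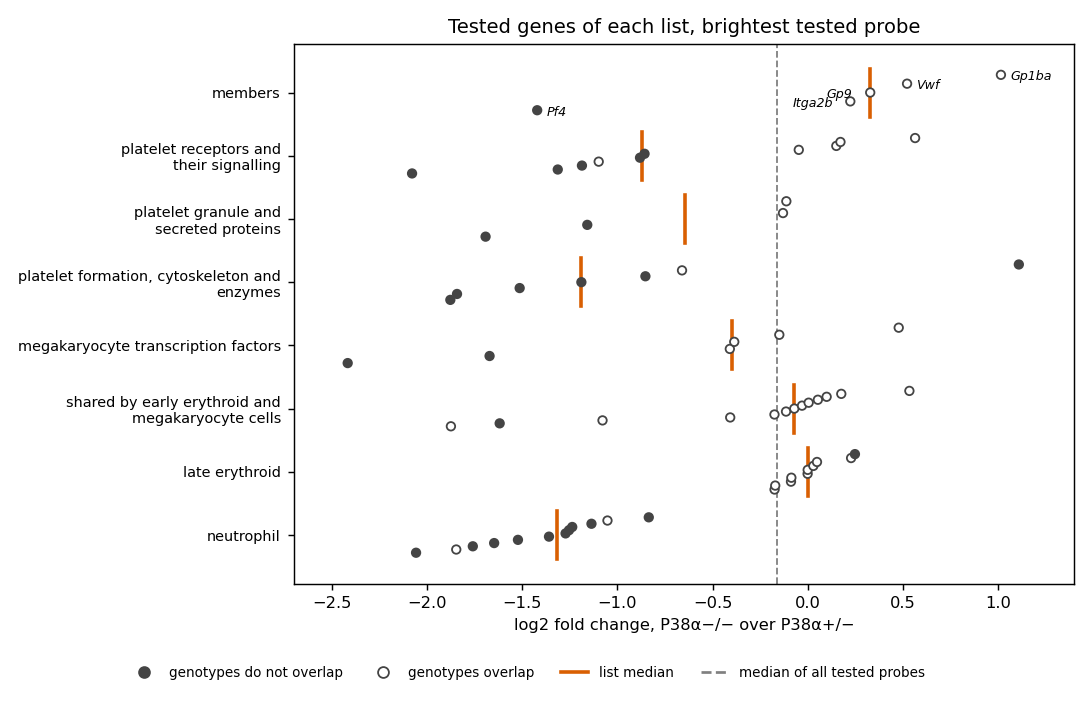
Log2 fold change (P38α-/- over P38α+/-) of every tested gene in the member list, 5 further megakaryocyte, platelet and shared lists, and the late erythroid and neutrophil lists. Filled points are genes whose genotypes do not overlap over 3 against 3 arrays, orange bars are list medians and the dashed line is the median of all tested probes (-0.16). Among the members Pf4 is the sole point left of the dashed line, the receptor, formation and neutrophil lists lie mostly left of it, the granule list has 2 genes on each side, and late erythroid genes gather near 0.

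Among receptors and their signalling proteins, Rgs18, a regulator of G protein signalling, had the highest difference (0.56, adjusted p = 0.380) and Lat, an adaptor of platelet collagen receptor and T cell receptor signalling, the lowest (-2.08, adjusted p = 0.299). Lat measured -1.40, -4.78 and -4.56 in P38hetero and -4.99, -4.98 and -7.00 in P38ko. Only P38hetero replicate 1 stood well above the rest, and without it the difference was -0.98. Itgb3, which encodes the β3 partner of αIIb, was lower in mean by -1.10 (adjusted p = 0.384), with overlap. The defining receptors Itga2 and P2ry12 were not well above background on any array, nor were F2rl2 and F2rl3.

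Among granule and secreted proteins, F13a1, the A subunit of coagulation factor XIII, had the lowest difference, and 4 of 13 genes were tested. F13a1 measured -3.13, -1.76 and -3.18 in P38hetero and -4.41, -3.95 and -4.79 in P38ko. All P38ko arrays were below all P38hetero arrays, and the highest was again P38hetero replicate 2 (log2 difference -1.69, adjusted p = 0.131, limma). F13a1 is also expressed by monocytes and macrophages. Tgfb1, the other end of this list, differed by -0.11 (adjusted p = 0.866). Selp, Mmrn1 and Cxcl5 were not well above background on any array.

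The enzymes of thromboxane synthesis stood at opposite ends of the formation and enzyme list. Tbxas1, thromboxane A synthase, measured -0.99, -1.23 and -0.26 in P38hetero and 0.07, 0.04 and 0.73 in P38ko, with every P38ko array above every P38hetero array (1.11, adjusted p = 0.149). Ptgs1, the cyclooxygenase upstream of it, measured -3.03, -1.89 and -4.21 in P38hetero and -4.81, -4.30 and -5.65 in P38ko, with every P38ko array below (-1.88, adjusted p = 0.177). Both kept their sign under every scaling run. Cd9, a tetraspanin abundant on platelets, was lower by -1.84 (adjusted p = 0.104). Rab27b, a GTPase of granule secretion singled out after its values were seen, was not well above background on any P38hetero array and was so on 2 P38ko arrays. With the P38hetero arrays at the detection floor, Rab27b was at least 2.34-fold higher in P38ko in the main setting (measured means -8.52 and -5.09), without overlap. The P38ko mean behind this minimum includes an array that was not well above background. After normexp background correction the log2 difference was 0.78, compared with 3.43 in the main setting. Rab27b was not tested by limma. Tubb1, the β-tubulin of megakaryocytes and platelets, and Alox12 were not well above background on any array.

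Among megakaryocyte transcription factors, 6 of 8 were tested. Fli1, an ETS factor of megakaryocytes that B cells and endothelial cells also express, measured -4.95, -3.64 and -5.65 in P38hetero and -7.79, -6.35 and -7.34 in P38ko. It was well above background on 3 P38hetero arrays and on 1 P38ko array, without overlap (-2.42, adjusted p = 0.120, limma). Ets1, also well above background on 1 P38ko array, followed with -1.67 (adjusted p = 0.169) and no overlap. Both were tested because of their P38hetero arrays, so the sizes of these differences rest on P38ko values at background. After normexp background correction they were -0.625 for Fli1 and -0.502 for Ets1. Runx1 was at the other end with 0.48 (adjusted p = 0.378).

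In the list shared by early erythroid and megakaryocyte cells, 13 of 14 genes were tested, with a median difference of -0.07, or 0.09 above the median tested probe. The erythroid and megakaryocyte regulators Gata1 (0.05), Zfpm1 (0.10), Nfe2 (-0.03), Tal1 (0.00), Lmo2 (-0.07) and Gfi1b (-0.18) had differences within 0.2 log2 units of 0, with adjusted p from 0.554 to 0.990. Nfe2, Lmo2, Gfi1b and Tal1 took the other sign under at least 1 other scaling. Gata1 measured 3.64, 3.55 and 3.85 in P38hetero and 3.74, 3.59 and 3.87 in P38ko, with the genotypes interleaved. The lowest differences in the list, named after their values were seen, were those of Cd34 (-1.87, adjusted p = 0.254), Kit (-1.62, adjusted p = 0.160) and Myb (-1.08, adjusted p = 0.267), and Kit alone of the 13 was without overlap. Cd151, a tetraspanin, had the highest difference (0.53, adjusted p = 0.236). In the early erythroid list, which also holds Kit and Myb, 10 of 12 genes were tested, with 6 above and 4 below 0 and a median of 0.07. Myc (0.05, adjusted p = 0.925), Epor, the erythropoietin receptor gene (0.21, adjusted p = 0.481), and Klf1, an erythroid transcription factor gene (0.21, adjusted p = 0.738), were among the 6. Of the 10, 3 lay lower in P38ko without overlap, against 20.8% of all tested probes, and 1 (Epor) higher, against 6.93%. The 3 were Kit, Car1 (-0.35, adjusted p = 0.34, limma) and Ermap (-0.21, adjusted p = 0.478, limma).

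Markers of several other cell types, which a CD71highTer119+ gate is meant to leave out, had lower means in P38ko. All 12 neutrophil markers, among them Mpo, Elane and S100a8, were well above background on each of the 6 arrays and lower in mean in P38ko, with a median difference of -1.32, and 10 of the 12 (83.3%) lay lower without overlap, against 20.8% of all tested probes. That number was 10 after quantile normalization and in the values of the authors, 9 after normexp, 6 with the percentile over all probes and 1 after spike-in centring, and the median stayed negative, between -1.35 and -0.83. Their summed log2 level was 7.55, 8.24 and 6.87 in P38hetero and 6.40, 6.44 and 5.96 in P38ko. As with Pf4 and F13a1, P38hetero replicate 2 was the highest. The summed monocyte and macrophage level was 0.46, 0.70 and -0.57 in P38hetero and -0.20, -0.63 and -1.19 in P38ko, and that of 8 B cell markers was -0.06, 0.30 and -2.85 against -2.39, -3.62 and -4.12. Of these lists, only the macrophage receptor gene Mrc1 was at background throughout. The T or NK cell list (4 of 8 tested) had a median difference of -0.24, which is -0.08 against the median tested probe. Without P38hetero replicate 2 the neutrophil median was -0.97, and 15 of the 21 platelet list genes were lower in P38ko, with a median of -0.75. The part of these cells in the lower values of Pf4, F13a1, Ptgs1, Fli1 and the other platelet list genes was not tested. The late erythroid sum was 9.89, 9.37 and 9.24 in P38hetero and 9.94, 9.24 and 9.28 in P38ko, with overlap.

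**Figure D3:**
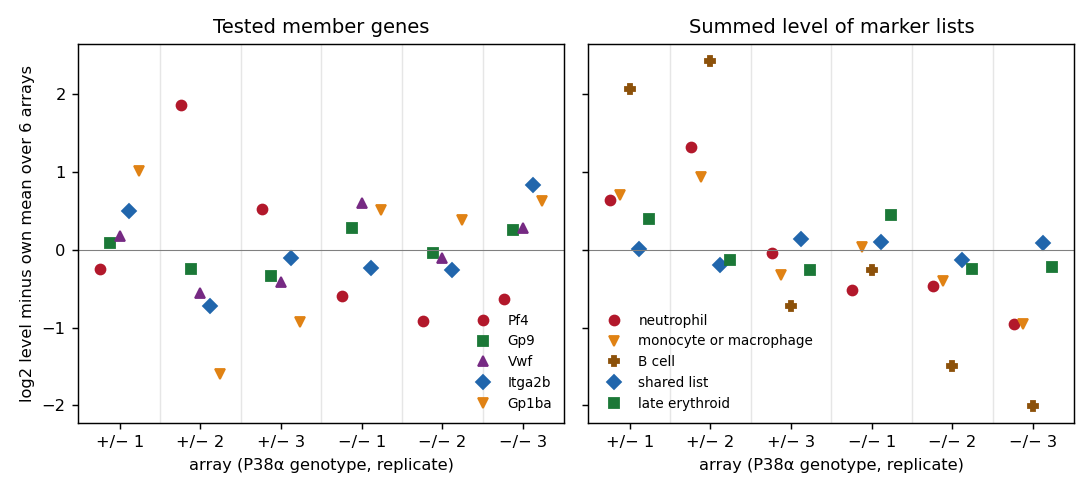
Log2 level minus its own mean over the 6 arrays, for the 5 tested members (left) and for the summed signal of 5 marker lists (right), with arrays in columns and no order among replicates. Pf4 (left) and the neutrophil, monocyte and B cell sums (right) are highest on P38α+/- replicate 2, where Gp1ba, Vwf and Itga2b are lowest.

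The array profiles of Pf4 and Itga2b were then compared with those of all other genes, using the root mean square (RMS) difference of centred log2 signals over 6 arrays and 15536 probes well above background on all of them. This is a description, with no test. Closest to Pf4 were Lmo4 (RMS difference 0.319), Cebpb (0.339) and Pgam1 (0.349), against a spread of Pf4 about its own mean of 0.946. Lmo4 measured -2.98, -1.54 and -2.98 in P38hetero and -3.86, -3.64 and -4.02 in P38ko, which shares the peak of Pf4 on P38hetero replicate 2. Closest to Itga2b were Hemk1 (0.199), Rad51b (0.211) and Gm12472 (0.212), against a spread of 0.514, and each of these was lowest on P38hetero replicate 2.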

How the data were processed

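RNA of sorted BM erythroblasts from 6 mice was measured on 1-colour (Cy3) Agilent arrays read with Feature Extraction 10.7.3.1. The deposited intensity values were those written by the scanner software, background-subtracted within the array by the authors' pipeline and not scaled across arrays. A further table from the authors holds normalized intensity values, used as an alternative. In that table P38ko replicate 2 had a Spearman correlation of 0.897 with its scanner values, and the other columns had at least 0.9999. All columns were assigned to a sample from the labels. Probe positions are those of mm9.

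The members and gene lists were chosen with earlier results of these data known. Control spots and outlier flags were left out, spots of one probe were averaged and none was saturated. The log2 intensity minus the 75th percentile of the array was used, the percentile being that of the 15540 probes marked as well above background on each of the 6 arrays. Symbols were updated through RefSeq for 27509 probes by accession, 3549 by symbol and 404 by synonym. The file's own name was used for 24219. A gene was represented by its brightest probe (for the lists, its brightest tested probe) and counted as passed if any probe passed. A summed level is the log2 of the added relative signals of a list. Testing was limited to the 18785 probes that cleared background on each of the 3 arrays of a genotype and was done in R 4.3.3 with the two-sided moderated test of limma 3.58.1 with Benjamini-Hochberg adjustment, at an adjusted p of at most 0.05 and a fold of at least 2, as the methods set. Single probes and within-array differences were tested by exact permutation of the 6 arrays (two-sided, smallest p 0.10). The permutation treated the arrays as unpaired, although same-numbered arrays deviated together. The labels do not say more than that mice came in pairs, and p-values measure the spread between these arrays. For the pairs, deviations from the genotype means correlated at 0.538, 0.312 and 0.424 between same-numbered arrays and at most at 0.182 between others.

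From each list the tested genes with the highest and the lowest difference were named, and any that passed. Further list genes were named after their values were seen. The detection floor behind a stated minimum fold is, per array, the lowest signal among probes well above background. On simulated data for P38ko against P38hetero with 200 of 18780 probes changed by 4 log2 units, limma called 198 probes, 190 of them changed, and called 0 with none changed. The simulated noise was independent between probes and the shift exceeded every member difference. It therefore does not show how well differences of the size seen here are found. Alternatives were other scalings, background correction, the values of the authors, replicate and slide blocks, array weights, filters, the methods' t-test and leaving out each array. The number of arrays and the share of detected probes limit the precision.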

Additional observations from a re-analysis of the deposited data

How the results depend on the processing

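The count of members that passed was 0 in 15 of 17 alternatives. It was 1 with limma array weights (Pf4) and 1 with the percentile over all probes (Gp1ba). The count of all genes that passed (27) moved under every alternative, to 1674 with array weights, 730 with the percentile over all probes, 64 with only probes well above background on all 6 arrays, 62 with the replicate block, 17 with normexp, 15 with quantile normalization, 11 with the values of the authors, 8 with spike-in centring, 2 with the methods' t-test, and 0 with the slide block and 0 with no filter on dim probes. Leaving out 1 array gave 0 to 310 genes, 310 without P38hetero replicate 3 and 0 without any other array. The share of passing genes that were higher in P38ko was 77.8% in the main setting, 55.5% with the percentile over all probes, 25.0% with spike-in centring, 93.3% with quantile normalization, 100% with normexp and with the values of the authors, 24.2% with the replicate block, 14.4% with array weights and 16.8% without P38hetero replicate 3.

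Of the 66 other megakaryocyte, platelet and shared genes, 15 passed with array weights (14 of them lower in P38ko), 5 with the percentile over all probes (4 lower), 3 with the replicate block, and 0 to 1 when 1 array was left out (Ets1 without P38hetero replicate 3). The median difference over all tested probes moved from -0.16 to 0.32 with the percentile over all probes, 0.06 with quantile normalization, 0.06 with the values of the authors and 0.01 with spike-in centring.

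Pf4 kept its negative sign in all 17 alternatives (-1.95 to -0.57, adjusted p 0.0309 to 1.00). Gp9 and Vwf kept their positive sign in all 17, and Gp1ba in all 16 that gave a value. These counts include the filter settings, the replicate block and the methods' t-test. Those settings leave a probe's log2 difference as in the main setting, so they could not change its sign. Itga2b reversed to -0.14 with the slide block (adjusted p = 0.915), to -0.08 without P38hetero replicate 2 (adjusted p = 0.95) and to -0.13 without P38ko replicate 3 (adjusted p = 0.92). The difference of Itga2b from the median platelet gene moved to 0.82 with array weights, was -0.10 over the members well above background on each array, and lay between -0.39 and 0.42 when 1 array was left out. Over the arrays left out, Itga2b ran from -0.13 to 0.53. The median platelet gene difference lay between -0.09 and 0.67. The replicate block changed no call of a member. The causes of these changes were not tested. Dim probes (Ppbp, Gp1bb, Gp5, Treml1, Gp1ba) are limited by signal over background.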
